A study of Homo sapiens with 9 samples.

Results

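Spinal cord organoids (SCOs) that had received no drug were described here on their own, without any drug comparison. The 3 vehicle libraries were taken from the 9 libraries of the series by their treatment label, and no other library entered the values. SCOs are 3D tissues grown from human induced pluripotent stem cells (iPSCs) through a neuromesodermal state, which was induced by blocking activin and TGF-beta receptors and the kinase GSK3, followed by culture in basic FGF (bFGF). The cells were of the WTC line, an established human iPSC line. The labels give the genotype as WT, while the methods of the study describe WTC clones that carry an mMaple and fLPo recombinase cassette in the SOX10 locus and a GFP lineage switch, some of them with indels on the other SOX10 allele. Each library held messenger RNA of several pooled organoids of 1 clone, so the replicates differ in clone and in organoids at once, and the labels do not tie a library to a clone. The treatment lasted 96 h by the labels, for the vehicle group in bFGF medium, and RNA was taken after it. The text of the study describes a shorter VPA exposure for its first experiments with the drug. All values below are from whole organoids, in which fewer cells of a type and less RNA per cell cannot be told apart.

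The neural tube is patterned along 2 axes. Along the head to tail axis, HOX genes of higher paralog number are switched on toward the tail, whereas forebrain and midbrain cells use other homeobox factors and no HOX genes. Across the tube, the roof plate (source of BMP and WNT) and the floor plate (source of sonic hedgehog) set up stripes of progenitors, each marked by its own transcription factors and each giving rise to its own class of neurons. Neural crest cells leave the dorsal tube and form peripheral neurons, Schwann cells, melanocytes and, in the head, mesenchyme.

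The libraries held 17189216, 15290294 and 16702123 counted reads for replicates 1, 2 and 3, and series of 3 values are given in that order throughout. A gene was called detected when it had at least 1 CPM (counts per 1e6 counted reads) in every library, and 14733 of the 28374 genes with a vehicle count were detected. A level that is compared between genes is given as TPM (counts per kilobase of gene length, scaled to the same sum in every library), as mean ± SD with n = 3. A value of 3 counts, taken as the floor, corresponded to 0.175, 0.196 and 0.180 CPM, and covers counting error only. Libraries 1 and 3 stood farthest apart, with 793 of the detected genes at least 2-fold apart in CPM, against 315 between libraries 1 and 2 and 418 between libraries 2 and 3. Of the 16977 nuclear protein-coding genes in the table, 12865 were detected (75.8%), and the median TPM of those detected was 24.8. With a single group of 3 libraries no test was made, since a sign-flip test of 3 libraries cannot give a p under 0.25. Differences between libraries are therefore described by their values and by a fold rule.

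The RNA was spread over many genes. The 10 most abundant genes held 6.58%, 6.35% and 7.65% of counted reads, the 100 most abundant 17.7%, 16.9% and 17.9%, and the 1000 most abundant 46.1%, 45.9% and 46.5%. Protein-coding genes took 96.8% ± 0.0606 (SD, n = 3) of the counts, long noncoding RNAs 1.43% ± 0.0352 and pseudogenes 0.921% ± 0.0292. Genes of the mitochondrial genome, which encodes subunits of the respiratory chain, took 5.56%, 5.28% and 6.73% of the counts, and 21.0%, 20.1% and 24.8% of the TPM. The 78 cytosolic ribosomal protein genes were all detected and took 4.30% ± 0.364 of the counts. The 63 replication-dependent histone genes, whose transcripts lack a poly-A tail, took 0.0170% ± 0.00295 in these poly-A selected libraries, and 17 of them were detected. By mean TPM, 70 detected genes were at 1000 or more, 1405 between 100 and 1000, 8913 between 10 and 100, and 4175 between 1 and 10.

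**Figure D1:**
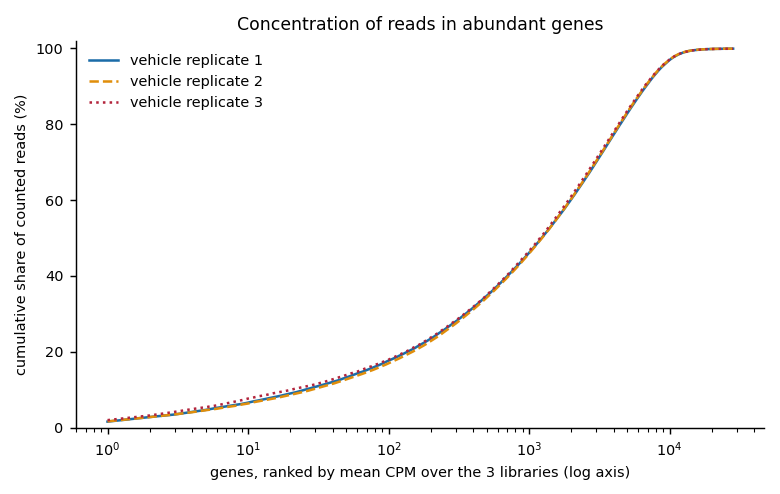
Cumulative share of counted reads (%) against the number of genes, ranked by mean CPM (log axis), with a line for each vehicle library. The 3 lines nearly coincide, and the 1000 most abundant genes reach 46.1%, 45.9% and 46.5% of the reads.

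The most abundant transcripts came from the mitochondrial genome, the translation machinery and the cytoskeleton. Within the mitochondrial genome the order by mean TPM was MT-CO1 (42761 ± 4888), MT-CO2 (24986 ± 3283), MT-CO3 (22552 ± 3571), MT-ND4 (21389 ± 3921) and MT-ATP6 (20878 ± 4581). Of the nuclear protein-coding genes, EEF1A1, the factor that brings aminoacyl-tRNA to the ribosome, was highest at 7659 ± 207 TPM. The cytoskeletal genes ACTG1, TUBA1A, ACTB, TMSB4X and TUBB followed at 6706, 3912, 3665, 3105 and 1788 TPM. These encode the cytoplasmic actins, alpha and beta tubulins and a peptide that binds free actin. SFRP2, a secreted WNT antagonist, followed TUBA1A at 3797 ± 403 TPM, with 3849, 4172 and 3371 TPM in the 3 libraries. FGFBP3, a secreted FGF binding protein, stood at 2385 ± 286 TPM. The SDs of SFRP2 and FGFBP3 were small beside their means, and both exceeded GAPDH, the glycolytic enzyme often used as a reference, in each library (2054, 1948 and 1443 TPM).

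Translation and housekeeping genes filled most of the remaining top 20 by mean TPM. The ribosomal protein genes RPS12, RPL13A, RPLP0, RPL41, RPL4 and RPL7A ranged from 1619.9 to 2462 TPM. The elongation factor EEF2 reached 2289 TPM, the chaperone HSP90AB1 2108 TPM, brain creatine kinase CKB 1963 TPM and the ferritin light chain FTL 1941 TPM.

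Outside the protein-coding genes, the 10 highest genes of at least 200 bases were led by copies of abundant messages. RPL9P9 (2342 TPM), MTATP6P1 (1859.8), H3F3AP4 (736), RPL3P4 (603), RPL10P16 (577), MTND2P28 (564), RPL18AP3 (541) and RPS7P1 (494 TPM) are copies of ribosomal, histone or mitochondrial genes. The other two, AC116533.1 and AC008038.1, were at 667 and 619.6 TPM. All 10 are annotated as pseudogenes, and reads that belong to a parent gene could be counted on them, so these levels are uncertain. Among long noncoding RNAs, picked after their values were seen, PANTR1 was highest at 383 ± 33.4 TPM. PANTR1 lies beside the neural POU factor gene POU3F3. NORAD, a cytoplasmic RNA that binds Pumilio proteins, followed at 338 ± 42.3 TPM, then MIR124-2HG, a host transcript of the neuronal microRNA miR-124, at 228 ± 68.0 TPM and the nuclear speckle RNA MALAT1 at 187 ± 30.6 TPM. MIR124-2HG differed between libraries, at 161, 225 and 297 TPM, in the order seen for young neuron genes further on.

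Neural progenitor regulators ranked among the most abundant of all genes with a transcription factor family in the table. Of 1417 such genes with a vehicle count, 1111 were detected. Taken by mean TPM after the values were seen, the leaders were YBX1, a broadly expressed cold-shock domain protein that binds RNA, at 1465 ± 339 TPM, and SOX3, a SOXB1 factor that holds neural progenitors undifferentiated, at 1148 ± 202 TPM. HOXB9 was next at 1114 ± 375 TPM, ahead of HES5 (908 ± 26.1 TPM), the Notch effector that blocks neuronal differentiation. HMGA1, a chromatin protein of dividing cells, stood at 1159.6, 755 and 519 TPM in the 3 libraries and so was more than 2-fold higher in library 1 than in library 3. The next ones were CNBP (728 TPM), HES4 (668), DBX1 (609.6), HES6 (608) and HMGB2 (558 TPM). POU3F2 (BRN2), a neuroepithelial POU factor, SOX2 and the nuclear receptor gene NR2F1 were at 465, 405 and 412 TPM.

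HOX genes were detected from the hindbrain groups to the lumbar group 10, with the highest level in the thoracic group 9. Of the 39 human HOX genes, 38 were in the table, 37 had a vehicle count and 29 were detected. HOX transcripts together made up 2822, 2786 and 1651 TPM in the 3 libraries, so library 1 held 1.71 times as much as library 3. HOXB9, in the thoracic paralog group 9 (GRCh38, chromosome 17, 48621159 to 48626356, minus strand), was the highest at 1301, 1358 and 682 TPM. It lay far above HOXB8 (295, 292 and 198 TPM) and HOXB2 (230.3, 203 and 198 TPM), and the library ranges of HOXB9 and HOXB8 did not overlap. Group 9 as a whole carried 48.3% of HOX TPM, group 8 13.6% and group 2 12.0%. By cluster, HOXB carried 78.9%, HOXC 9.43%, HOXA 8.74% and HOXD 2.93%.

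The paralog groups 1 to 3, used from the hindbrain back, had 8 of 8 genes detected, with a summed level of 470.0, 408 and 363 TPM. Besides HOXB2 these included HOXB3 (78.3 TPM), HOXA2 (62.9), HOXA3 (24.8), HOXB1 (18.1), HOXD1 (9.44) and HOXD3 (4.16 TPM). The cervical groups 4 and 5 had 6 of 7 detected, led by HOXB5 (59.7 TPM), HOXC4 (46.6) and HOXA5 (46.2 TPM). HOXB4, HOXD4 and HOXA4 were at 23.6, 16.4 and 7.85 TPM, and HOXC5 had 32, 14 and 12 counts. Groups 6 to 8, of the brachial and thoracic cord, had 8 of 8 detected. HOXB7 (73.9 TPM), HOXC6 (72.9), HOXB6 (70.9) and HOXC8 (53.9 TPM) overlapped in their library ranges behind HOXB8, and HOXD8, HOXA7 and HOXA6 were at 10.4, 8.89 and 8.77 TPM. The other group 9 genes HOXA9 (26.9 TPM), HOXC9 (24.99) and HOXD9 (19.2 TPM) lay far below HOXB9. HOXD1, HOXD3, HOXD4, HOXC5 and HOXA7 share over 50% of their exon bases with other annotated genes, and their levels are uncertain for that reason.

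Beyond group 10 no HOX gene was detected. Groups 10 to 13 had 3 of 12 genes detected, and their summed level was 92.3, 51.0 and 27.6 TPM. HOXC10, a lumbar gene, led with 49.1, 24.4 and 17.2 TPM, followed by HOXA10 (14.9, 11.8 and 5.24 TPM) and HOXD10 (12.4, 7.20 and 3.44 TPM). HOXD11 had 79, 42 and 11 counts and HOXA11 58, 19 and 2 counts, both highest in library 1, and HOXA11 was under the floor in library 3. HOXD12 and HOXC11 had counts in library 1 alone (8 and 7), HOXA13, HOXB13 and HOXD13 had at most 3 counts in any library, and HOXC13 had none.

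**Figure D2:**
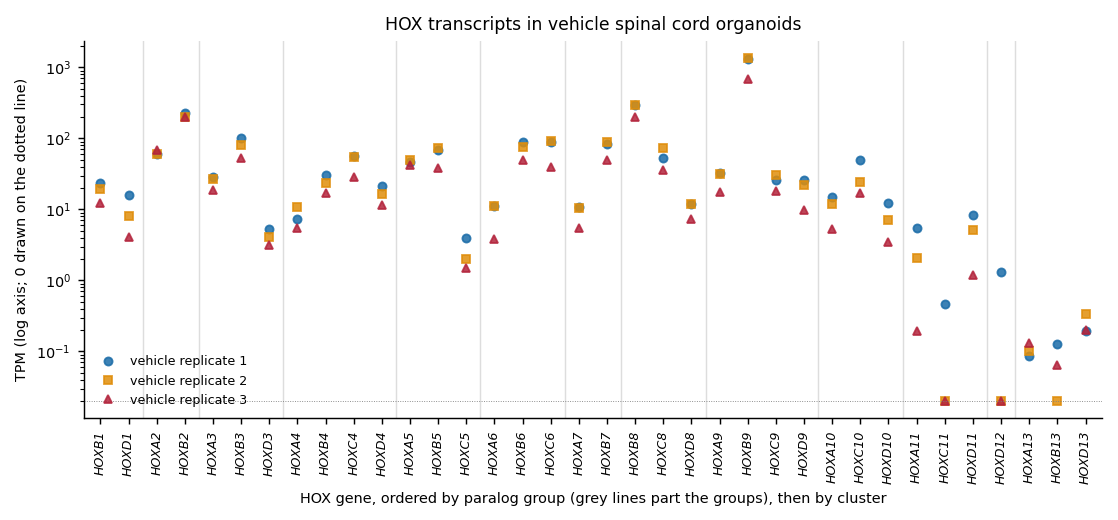
TPM (log axis) of HOX genes with a vehicle count, ordered by paralog group and cluster, with a marker for each vehicle library and a count of 0 drawn on the dotted line. HOXB9 stands above all others in each library, no gene beyond group 10 was detected, and library 3 is lowest for most genes.

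The libraries differed in HOX level in a common direction. Of the 29 detected HOX genes, 27 (93.1%) had their lowest CPM in library 3, against 43.7% of all detected genes outside the Y chromosome. HOXA2 and HOXB2 were the exceptions, with 39.3, 37.5 and 44.7 CPM and 142, 122 and 122 CPM. Of the detected HOX genes, 20 were highest in library 1, 8 in library 2 and 1 in library 3. Among the 14718 detected genes with per-gene values, 5827, 3644 and 5247 were highest in libraries 1, 2 and 3. Without library 3 the mean sum of all HOX genes was 2804 TPM, against 2420 TPM with it.

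Of the forebrain and midbrain genes EN1 and EN2 were the detected ones (2 of 17), and the summed level was 19.8, 22.5 and 127 TPM, with a mean of 21.1 TPM without library 3. The forebrain and midbrain factor OTX2 had 2, 0 and 1 counts, SIX3 0, 1 and 0 and LHX2 1, 4 and 4. EMX1, DMBX1 and BARHL2 had 0 counts in all 3 libraries. EN1, also a marker of V1 interneurons of the cord, was at 11.4, 17.6 and 28.7 TPM. EN2, a gene of the midbrain and hindbrain border, was at 7.33, 3.53 and 89.6 TPM and thus high in library 3. DLX2 and BARHL1, used by neurons of the forebrain and the dorsal hindbrain and cord, had 0, 1 and 45 (DLX2) and 0, 0 and 33 (BARHL1) counts.

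Genes of the caudal epiblast, the embryonic source of the trunk cord, had 8 of 16 members detected, and its defining genes were low. The neuromesodermal factor TBXT had 15, 13 and 1 counts, FGF8 2, 0 and 6, WNT8A 2, 2 and 3 and SP5 4, 1 and 0. LIN28A, an RNA binding protein of early embryonic cells that blocks let-7, was at 227, 114 and 88.8 TPM, highest in library 1. Its relative LIN28B was at 87.3 ± 5.76 TPM, GREB1 at 119.9 ± 12.2 TPM and GDF11, a TGF-beta ligand of trunk patterning, at 49.6 ± 4.15 TPM. EVX1, NKX1-2 and FGF17 were at 31.4, 10.4 and 3.87 TPM. The caudal factor CDX2 had 225, 34 and 35 counts and was high in library 1.

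Across the dorsoventral axis the largest summed level among the dorsoventral lists was that of the intermediate cord. The intermediate progenitor list had 7 of 8 members detected and a summed level of 1324, 1166 and 1018 TPM. DBX1, the factor of the p0 domain (GRCh38, chromosome 11, 20156155 to 20160613, minus strand), led with 722, 592 and 514 TPM. SP8 followed with 244, 249 and 199 TPM and IRX3 with 165, 131 and 107 TPM. The library ranges of DBX1 and SP8 did not overlap. IRX5 was at 89.6 ± 6.59 TPM, PAX6 at 56.1 ± 2.53, PRDM12, a p1 and sensory lineage factor, at 34.3 ± 4.57, and DBX2 at 14.4 ± 0.474 TPM. PRDM13 had 13, 4 and 1 counts.

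Ventral progenitor genes were present, except for the most ventral one. The list had 7 of 9 detected, at a summed 493, 677 and 417 TPM. PRDM8 was at 202, 326 and 189 TPM and NKX6-1, which marks the ventral cord, at 182, 221 and 103 TPM, both highest in library 2. FOXN4, the p2 factor that starts V2 neurons, was at 46.6 ± 13.8 TPM and SOX14 at 27.3 ± 5.02 TPM. OLIG2, the factor of motor neuron progenitors, had 4.27, 15.9 and 30.8 TPM, lowest in library 1, and OLIG1 followed the same order at 12.5, 19.7 and 29.6 TPM. NKX6-2 was at 14.4, 4.86 and 5.75 TPM. NKX2-2, the marker of the p3 domain next to the floor plate, had 0 counts in all 3 libraries, and NKX2-8 had 0, 0 and 24 counts.

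The floor plate list was split. NTN1, the axon guidance cue netrin, was at 132 ± 25.9 TPM, SPON1 at 56.5 ± 22.3, SULF1 at 32.2 ± 2.69 and CMTM8 at 21.3 ± 2.01 TPM, which accounts for most of its summed 271, 253 and 224 TPM. The defining genes were low. SHH, the ligand sonic hedgehog, had 19, 16 and 176 counts, FOXA2 0, 7 and 52 and FOXA1 1, 3 and 20. NTN1 is also made by progenitors beside the floor plate. SHH, FOXA2, FOXA1 and LMX1B (4, 4 and 137 counts) were each highest in library 3.

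On the dorsal side, several dorsal and roof plate genes were low in libraries 1 and 2 and higher in library 3. The dorsal progenitor list had 7 of 12 detected at a summed 255, 323 and 365 TPM, with NEUROG1 at 87.1, 127 and 112 TPM and GBX2 at 77.4, 54.2 and 62.8 TPM. NEUROG1 is a proneural factor that is also used outside the dorsal cord. The paired box genes PAX3 and PAX7, which mark the dorsal tube, had 71, 16 and 295 (PAX3) and 11, 5 and 131 (PAX7) counts. OLIG3 had 35, 52 and 228 counts, and ATOH1, the factor of the dI1 domain, had 0, 0 and 126 counts. MSX1 was at 12.8 ± 2.98 TPM. GSX1 and PTF1A had at most 7 counts in any library.

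The roof plate list had 6 of 17 members detected, at a summed 119, 76.7 and 253 TPM and a mean of 98.0 TPM without library 3. ZIC2 was at 36.4, 14.7 and 81.6 TPM, BMP7 at 47.0, 37.7 and 39.8 TPM and ZIC5 at 9.12, 3.905 and 28.8 TPM. Of the ZIC genes of dorsal neural tissue, ZIC1 (GRCh38, chromosome 3, 147393422 to 147510293, plus strand) had 10, 22 and 618 counts and ZIC4 had 7, 1 and 133. Of the secreted signals of the roof plate, WNT3A had 7, 4 and 163 counts, GDF7 43, 15 and 244 and RSPO1 6, 5 and 55. BMP4 had 19, 1 and 25 counts, little higher in library 3 than in library 1. WNT1 had 2, 2 and 7 counts, near the floor. BMP6 was at 4.24 ± 1.60 TPM and MSX2 had 20, 3 and 225 counts. The defining roof plate factor LMX1A had 1, 0 and 4 counts, near the floor in each library. Of the 17 members 14 had at least 1 CPM in a library, and in 10 library 3 was at least 2-fold above each other library. That call was made for 2.18% of the 16776 genes with at least 1 CPM in a library. WNT3A, ZIC4 and RSPO1 reached 1 CPM in library 3 alone, and the members were chosen with earlier results known. The count can therefore not be set against that share.

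**Figure D3:**
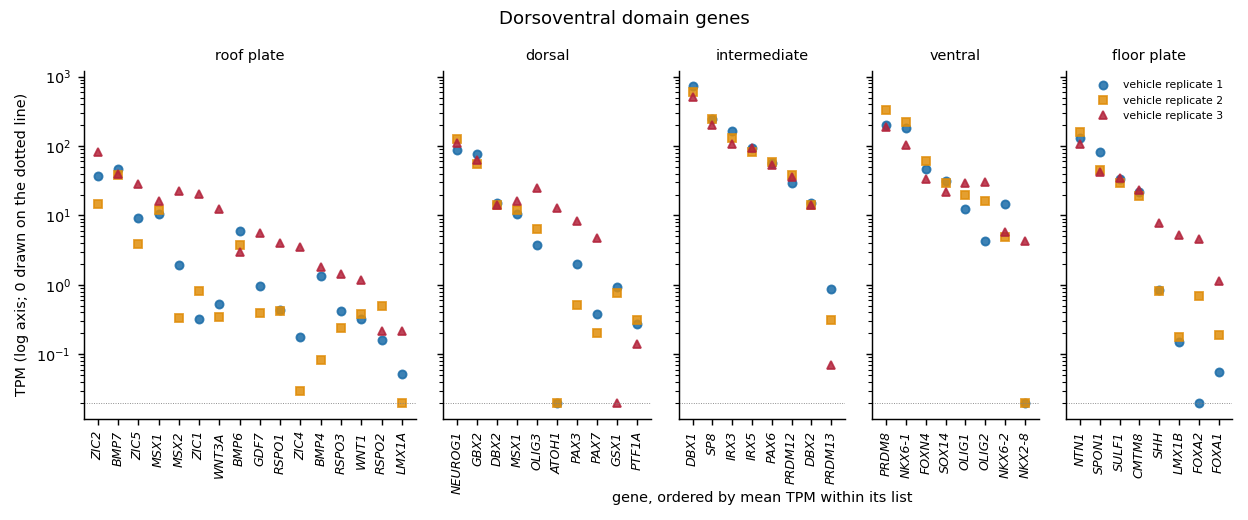
TPM (log axis) of the roof plate, dorsal, intermediate, ventral and floor plate genes reported here, ordered by mean within each list, with a marker for each vehicle library and a count of 0 drawn on the dotted line. DBX1 is the highest of all, and library 3 lies far above the others for genes such as ATOH1, ZIC1 and FOXA2.

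Of the neuron class lists, that of V2 and V3 interneurons had the highest summed level. For V2 and V3 interneurons 11 of 13 list members were detected, at a summed 624, 648 and 544 TPM, of which SOX21 (254 TPM) and SOX1 (133 TPM) are shared with progenitors. The V2 gene VSX1 was at 66.6, 76.0 and 39.4 TPM, lowest in library 3. The V2b factors GATA2, TAL1 and GATA3 were at 23.6 ± 4.97, 20.5 ± 2.51 and 16.1 ± 1.88 TPM. LHX3, LHX4 and SHOX2 were at 11.8, 9.01 and 6.82 TPM. SIM1, the V3 marker, had 26, 11 and 14 counts.

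For V0 and V1 interneurons 9 of 11 were detected, at a summed 148, 172 and 197 TPM. The Onecut factors of young spinal neurons were at 46.5 ± 3.10 (ONECUT2), 23.6 ± 3.23 (ONECUT1) and 9.74 ± 1.74 TPM (ONECUT3). EVX1, the V0 marker, was at 31.2, 29.4 and 33.6 TPM and EVX2 at 3.36, 4.13 and 10.8 TPM. PAX2 was at 19.2 ± 2.81 TPM, FOXD3 at 13.5 ± 4.47 TPM and FOXP2 had 35, 85 and 319 counts. EVX1 varied little between libraries, whereas EVX2 and FOXP2 were high in library 3.

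Dorsal interneuron lists had smaller shares of detected members. The dI4 to dI6 list had 7 of 15 detected, led by LHX5 (68.1 ± 10.3 TPM), BHLHE22 (32.5 ± 0.922 TPM) and PAX2, with LHX1 (13.6 TPM), PHOX2A (8.94), POU2F2 (7.80) and GBX1 (3.91 TPM) behind. Several of these, such as LHX1, LHX5 and PAX2, are shared with ventral interneurons. LBX1, which defines dI4 to dI6, had 4, 1 and 0 counts, and DMRT3 and TLX1 had at most 4 in any library. The dI1 to dI3 list had 3 of 11 detected, OTP (40.3, 44.8 and 74.9 TPM), FOXD3 and POU4F1 (1.60, 1.68 and 6.02 TPM). TLX3 (2, 3 and 58 counts), ISL1 (20, 14 and 137), LHX9 (0, 0 and 86), BARHL1 (0, 0 and 33) and POU4F2 (1, 0 and 17) had most of their counts in library 3. Summed over the list, the level was 53.1, 61.8 and 125 TPM, and its mean without library 3 57.5 TPM. All 8 members of this list that reached 1 CPM in a library were highest in library 3, where 35.6% of all such genes were highest. LHX9, BARHL1, POU4F2 and TLX3 reached 1 CPM in library 3 alone, so the filter fixed their place. The count can therefore not be set against that share.

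Motor neuron genes were low throughout, with 8 of 12 detected and a summed 59.0, 66.8 and 80.1 TPM. The vesicular acetylcholine transporter gene SLC18A3 led with 12.9, 17.3 and 24.3 TPM, followed by LHX3 and CHODL (10.4 ± 2.26 TPM). SLC5A7, the choline transporter, and CHAT, which makes acetylcholine, were at 4.69 ± 0.679 and 3.29 ± 1.18 TPM, and FOXP1 at 2.03 ± 0.0431 TPM. MNX1, the defining gene of motor neurons, had 28, 32 and 24 counts and ISL2 4, 12 and 10. ALDH1A2, the retinoic acid enzyme of limb motor columns, had 10, 7 and 2.

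Transmitter genes of both signs were present. The inhibitory list had 6 of 6 genes detected, at a summed 98.0, 108 and 90.8 TPM. GAD1, which makes GABA, was at 25.7, 29.03 and 22.1 TPM, the vesicular transporter SLC32A1 at 24.3, 27.2 and 20.9 TPM and GAD2 at 10.6 ± 1.60 TPM. The glycine transporters SLC6A9 and SLC6A5 were at 19.1 ± 2.92 and 15.6 ± 1.72 TPM. Of the excitatory genes 3 of 5 were detected. SLC17A6, the vesicular glutamate transporter of spinal neurons, was at 7.83, 10.4 and 21.6 TPM, and the receptor gene GRIA2 at 17.9 ± 7.16 TPM. SLC17A7, the transporter typical of cortex, had 18, 7 and 34 counts.

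Neural progenitor genes had the highest summed level of all lists. All 18 neural progenitor genes were detected, at a summed 6675, 6897 and 6018 TPM and a median over the members of 189 TPM, against 24.8 TPM for detected nuclear protein-coding genes. The intermediate filament genes VIM and NES were at 1179, 1370.0 and 1385 (VIM) and 561, 571 and 451 (NES) TPM, SOX3 at 1251, 1278 and 915 TPM, HES5 at 896, 938 and 890.5 TPM and the adhesion gene CDH2 at 418 ± 28.9 TPM. FABP7, a radial glia gene, was at 332, 338 and 205 TPM, lowest in library 3. The remaining members, among them NOTCH1 (194 TPM), MSI1 (184) and SOX1, ranged down to 15.6 TPM for POU3F1.

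All 18 proliferation genes were detected too, at a summed 2849, 3220.0 and 2599 TPM. PCNA, the replication clamp, was at 513 ± 60.6 TPM, TOP2A at 509.9 ± 66.5, the mitotic cyclin CCNB1 at 347 ± 26.9 and MKI67 at 101 ± 23.9 TPM. Of the 18 genes 10 were highest in library 2 and 12 lowest in library 3. Of all genes with at least 1 CPM in a library, 25.4% were highest in library 2 and 42.8% lowest in library 3.

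The step from progenitor to neuron was well represented, with 13 of 14 members of its list detected at a summed 2074, 2412 and 2358 TPM. HES6, which promotes differentiation, was at 585, 636 and 603 TPM, the Notch ligand genes DLL1 and DLL3 at 383, 405 and 322 (DLL1) and 186, 239.7 and 243 (DLL3) TPM, and INSM1, a factor of newborn neurons, at 184 ± 14.96 TPM. NEUROD4 and NHLH1 were at 127 ± 25.2 and 150.2 ± 18.9 TPM, while NEUROG2 was at 13.7 ± 1.57 TPM, below NEUROG1.

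Young neuron genes were all detected, and they differed between libraries in a common order. Their summed level was 2470.1, 3189 and 3893 TPM, with a mean of 2829 TPM without library 3. STMN2, a growth cone protein of new axons, was at 642, 894 and 1109.6 TPM, DPYSL3 at 345, 366 and 403 TPM and CRMP1 at 199, 267 and 231 TPM. The neurofilament genes INA, NEFL and NEFM were at 151, 223 and 292 (INA), 125, 166 and 282 (NEFL) and 103, 128 and 213 (NEFM) TPM, and DCX at 80.1, 123 and 140.1 TPM. Of the 20 members 16 were highest and none lowest in library 3, and 16 were lowest in library 1, against 35.6%, 42.8% and 37.6% of genes with at least 1 CPM in a library. RBFOX3 (NeuN), a gene of later neurons, had 118, 47 and 54 counts. TUBB3, the tubulin of young neurons, was listed at 7.50 ± 0.96 TPM, far below STMN2. Of the exon bases of TUBB3 35.8% are shared with AC092143.1, which overlaps it on the same strand, and the part of this overlap in the low value was not tested.

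Genes of mature synapses had 13 of 15 detected at a summed 352, 382 and 412 TPM. The vesicle genes SYT4, SV2A and VAMP2 were at 117 ± 41.0, 90.9 ± 5.72 and 76.5 ± 4.16 TPM. Receptor and channel genes of later neurons were low per length. GRIN1 was at 0.498 TPM, SCN1A at 0.402, SCN2A at 0.354 and GRIN2B at 0.332 TPM.

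Defining genes of astrocytes were low. Of the astrocyte and radial glia list 7 of 14 were detected, and the summed 835, 851 and 589 TPM came mostly from GLUL (388, 337 and 265 TPM), FABP7, SPARCL1 (86.7 ± 35.5 TPM) and SLC1A3 (40.3 ± 3.51 TPM), which radial progenitors also use. SLC1A2, HOPX and TNC were at 5.08, 1.14 and 0.846 TPM. The astrocyte genes GFAP and AQP4 had 5, 15 and 6 (GFAP) and 3, 5 and 2 (AQP4) counts, and the gliogenic factors NFIA, NFIB and NFIX 4, 2 and 26 (NFIA), 9, 7 and 13 (NFIB) and 0, 2 and 0 (NFIX). The oligodendrocyte list had 9 of 12 detected. CNP was at 38.0 ± 8.33 TPM and MYRF at 12.5 ± 3.26 TPM, beside the factors OLIG1, SOX10 and OLIG2. CSPG4, PDGFRA and MBP were at 2.49, 1.25 and 1.03 TPM.

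The neural crest list had 14 of 19 genes detected and a summed 548, 609 and 575 TPM. Genes that neural progenitors share stood high in it, among them the low-affinity neurotrophin receptor NGFR (136, 150.2 and 84.8 TPM) and SOX9 (97.0, 122 and 105 TPM). SOX10, the crest and glial factor whose locus carries the reporter (GRCh38, chromosome 22, 37970686 to 37987422, minus strand), had 347, 248 and 230 counts or 20.6, 17.1 and 14.0 TPM, and its library ranges overlapped those of SOX5 (17.4 ± 1.05 TPM) and SOX8 (17.2 ± 1.97 TPM). FOXD3, the premigratory crest factor, was at 9.19, 13.1 and 18.1 TPM. ERBB3, a receptor of crest and Schwann cells, was at 3.27 ± 0.392 TPM. SNAI1 and SNAI2 were at 5.81 and 4.54 TPM, ITGA4 at 8.36 TPM and ETS1 at 1.80 TPM.

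A second set of crest genes had most of its counts in library 3. TFAP2B had 2, 2 and 307 counts, TFAP2A 10, 27 and 154, TWIST1 0, 1 and 63 and CDH19 11, 2 and 32. With PAX3 and PAX7 these were the 6 of 19 members at least 2-fold higher in library 3 than in each other library. That call was made for 2.18% of genes. The set was grouped by these values, and TFAP2B and TWIST1 reached 1 CPM in library 3 alone. Its size can therefore not be set against that share. SOX10 itself did not follow these genes, and was lowest in library 3. Without library 3 the mean summed level of the list was 578 TPM, against 577 ± 30.5 TPM with it.

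Defining genes of crest derivatives were low. Of the peripheral sensory neuron list 10 of 14 were detected, led by NEUROG1, NTRK2 (87.1 ± 10.4 TPM) and NEUROD1 (70.9 ± 14.0 TPM), none of them restricted to ganglia. PRPH, a filament gene of peripheral neurons, had 133, 86 and 85 counts and RUNX3 0, 4 and 0. Of the autonomic list 6 of 9 were detected, among them GATA3, CHRNA3 (9.08 TPM), PHOX2A, CHRNB4 (8.74 TPM) and DBH (3.00 TPM). TH, the rate-limiting enzyme of catecholamine synthesis, had 30, 5 and 48 counts, and HAND2 had 0. Of the melanocyte list PMEL alone was detected (113, 64.9 and 72.0 TPM, 1 of 6). MITF and DCT, which define the lineage, had 1, 3 and 13 (MITF) and 12, 7 and 12 (DCT) counts.

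Mesoderm lists had few detected genes. The paraxial mesoderm list had 4 of 16 detected, UNCX (27.4, 33.4 and 34.4 TPM), FOXC1 (23.7, 7.99 and 7.49 TPM), TCF15 (7.14 ± 0.927 TPM) and HES7 (3.48 ± 0.337 TPM). UNCX is also used by spinal progenitors and neurons. The presomitic factor TBX6 had 34, 22 and 9 counts, MESP2 0, 1 and 5, and PAX1 and TBX18 had 0 counts in all 3 libraries. Skeletal muscle had 4 of 13 detected at a summed 25.6, 19.8 and 15.3 TPM, CHRNA1 (6.34 TPM), ACTC1 (3.32), MYH3 (2.14) and TTN (1.10 TPM). The muscle factors MYOD1 and MYOG had 1, 0 and 0 (MYOD1) and 0, 1 and 1 (MYOG) counts.

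Mesenchyme and fibroblast genes had 10 of 19 detected at a summed 230.3, 143 and 199 TPM. COL1A1, which codes for a fibrillar collagen chain, was at 75.8, 40.4 and 26.8 TPM, FN1 at 37.8, 31.3 and 26.0 TPM and COL1A2 at 28.8, 9.97 and 33.9 TPM. The libraries did not share an order here, since COL1A1 was highest in library 1 and COL1A2 in library 3. In library 3 a separate set was high: the proteoglycan genes LUM and DCN had 82, 67 and 578 (LUM) and 0, 0 and 97 (DCN) counts, POSTN 2, 20 and 85, COL3A1 8, 11 and 85, COL6A3 6, 0 and 66 and the limb and head mesenchyme factor PRRX1 0, 0 and 53. With TWIST1, also counted among the crest genes above, these were the 7 of 19 members called high for library 3. That call was made for 2.18% of genes. The set was grouped by these values, and DCN, PRRX1 and TWIST1 reached 1 CPM in library 3 alone. Its size can therefore not be set against that share. Library 1 was instead high for PRRX2 (129, 24 and 26 counts) and ENG (40, 16 and 17), 2 of 19 members against 1.68% of genes.

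Blood, endothelium and choroid plexus genes had some of the lowest summed levels. No blood or microglia gene was detected (0 of 14), and the highest count was 33, for RUNX1 in library 2. The endothelial genes PECAM1 and CDH5 had 8, 13 and 8 (PECAM1) and 7, 9 and 4 (CDH5) counts, and of that list EGFL7 (17.6 TPM), TIE1 (5.70) and KDR (2.34 TPM) were detected (3 of 10). Of the endoderm list CXCR4 (191, 199.8 and 226 TPM), also a chemokine receptor of neural cells, and EPCAM (7.79, 5.17 and 1.71 TPM) were detected (2 of 12), while SOX17, GATA4, GATA6 and HNF4A had 0 counts in all 3 libraries. Ependyma and choroid plexus had 3 of 9 detected: FOXJ1 (11.4 ± 0.52 TPM), a factor of motile cilia also active in the floor plate, CLIC6 (4.23 TPM) and PIFO (2.15 TPM). TTR, the defining choroid plexus gene, had 1, 0 and 6 counts.

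Epithelial genes formed a small set that was high in library 1. The surface ectoderm and epithelium list had 4 of 12 detected at a summed 45.8, 18.4 and 8.50 TPM. The simple epithelial keratin genes KRT8 and KRT18 had 534, 170 and 80 (KRT8) and 172, 45 and 21 (KRT18) counts, EPCAM 89, 51 and 19, CLDN4 61, 24 and 17, CLDN6 29, 10 and 8 and KRT19 26, 2 and 6. All 6 were highest in library 1, where 39.0% of genes with at least 1 CPM in a library were highest. KRT19 and CLDN6 reached 1 CPM in library 1 alone, so that filter fixed their place. In library 1, 5 of the 12 members were at least 2-fold above each other library, a call made for 1.68% of genes. These counts can therefore not be set against the shares of all genes. The epidermal genes KRT5 and KRT14 were not in the table used here, TP63 had 1 count in library 3 alone, and CDH1 had 3, 4 and 5 counts.

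Defining pluripotency genes were low. POU5F1 (OCT4), the defining factor of iPSCs, had 3, 3 and 5 counts, NANOG 8, 10 and 0 and ZFP42 1, 0 and 7. The detected members (3 of 12) were other early genes, with DPPA4 at 148, 172 and 100.2 TPM, the DNA methyltransferase gene DNMT3B at 89.9, 79.3 and 64.4 TPM and L1TD1 at 8.76, 5.10 and 4.29 TPM. All were lowest in library 3.

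**Figure D4:**
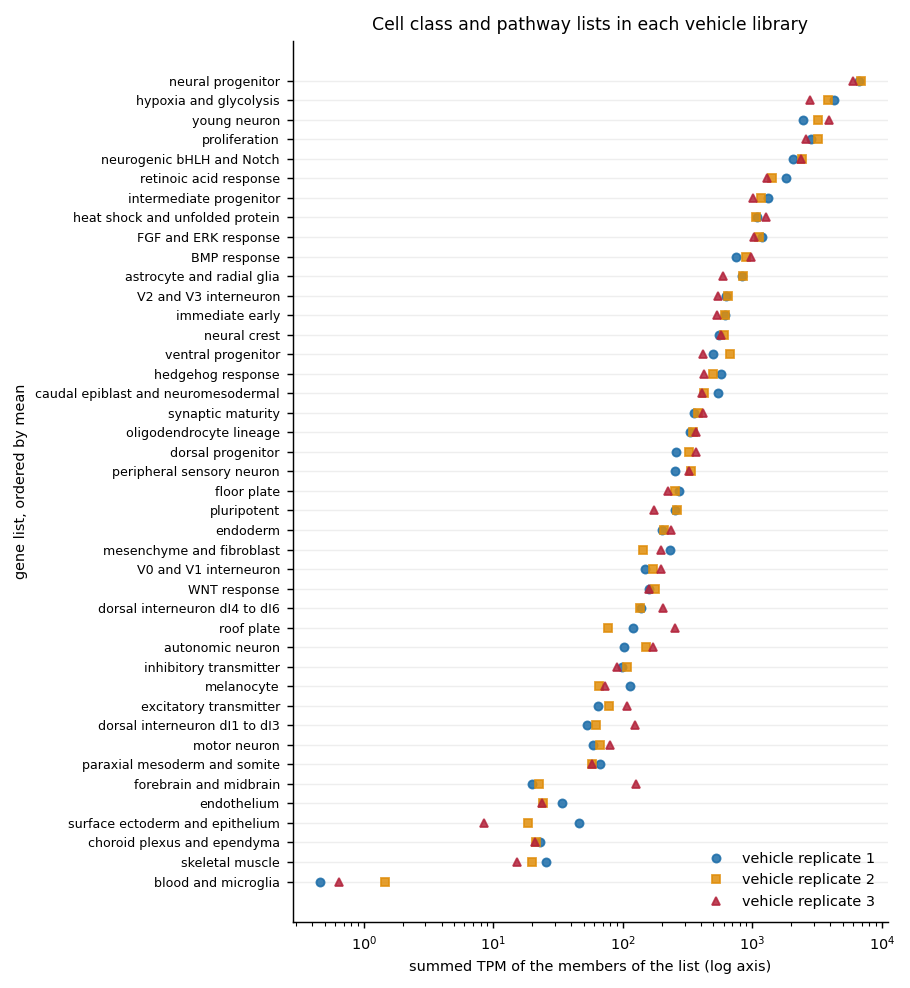
Summed TPM (log axis) of the members of each cell class and pathway list other than HOX, ordered by mean, with a marker for each vehicle library. Neural progenitor genes are highest and blood and microglia genes lowest, and the roof plate, forebrain and midbrain, and surface ectoderm lists are among those with the libraries farthest apart.

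Targets of FGF signalling were expressed in the bFGF medium. The FGF and ERK list had 13 of 13 genes detected at a summed 1189, 1129 and 1025 TPM. The feedback inhibitor genes SPRY2 and SPRY1 were at 346, 295 and 269 (SPRY2) and 140.4, 129.7 and 134 (SPRY1) TPM, DUSP6, the ERK phosphatase, at 122, 113 and 81.9 TPM and EGR1 at 145, 151 and 93.9 TPM. ETV1, ETV5 and ETV4, transcription factors downstream of FGF receptors, were at 75.0 ± 13.2, 21.8 ± 1.49 and 20.5 ± 8.38 TPM.

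For retinoic acid the carriers were high and the enzymes low. The list had 9 of 13 detected. CRABP1 and CRABP2, which bind retinoic acid in the cell, were at 1194, 918 and 885 (CRABP1) and 465, 341 and 295 (CRABP2) TPM, the receptor genes RARA, RARB and RARG at 35.6, 9.16 and 2.84 TPM, and STRA6, the retinol importer, at 47.0, 35.5 and 16.8 TPM. CYP26B1 and DHRS3 were at 19.0 and 3.13 TPM. CYP26A1, an enzyme that retinoic acid induces and that degrades it, had 2, 0 and 2 counts, and the synthesis gene ALDH1A2 10, 7 and 2.

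The hedgehog list had 9 of 11 detected at a summed 571, 497 and 422 TPM, mostly from receptors and mediators, among them BOC (129 ± 29.8 TPM), SMO (108 ± 24.7), PTCH1 (89.0 ± 11.7), GLI3 (56.4 ± 1.43), GAS1 (52.6 ± 9.63) and GLI2 (49.7 ± 11.8 TPM). Other genes that hedgehog signalling induces were low, with 5, 6 and 4 counts for GLI1 and 0.505 TPM for HHIP. CDON was at 5.16, 4.84 and 16.4 TPM.

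The BMP list had 10 of 11 detected at a summed 747, 885 and 979 TPM. ID2, ID4 and ID1, helix-loop-helix inhibitors induced by BMP and Notch, were at 229, 350.2 and 303 (ID2), 237, 282 and 338 (ID4) and 131, 149.6 and 184 (ID1) TPM, and the antagonist NOG at 9.44 ± 1.63 TPM. Of the WNT list 7 of 12 were detected, LGR5 (74.9, 109 and 83.7 TPM), APCDD1 (26.0 ± 3.61 TPM), ZNRF3 (21.8 ± 1.85), AXIN2 (11.5 ± 1.92), NKD1 (6.75 ± 0.757), TCF7 (2.93 ± 0.517) and LEF1 (2.79 ± 1.75 TPM).

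Stress genes differed in the library in which they were highest. The hypoxia and glycolysis list had 13 of 14 detected, with a summed 4284, 3799.9 and 2797 TPM, lowest in library 3. ENO1, SLC2A1 (the glucose transporter GLUT1) and LDHA were at 1415, 1246 and 832 (ENO1), 1179, 969.6 and 662 (SLC2A1) and 548, 513 and 439 (LDHA) TPM. CA9, a gene of strong hypoxia, had 12, 3 and 2 counts, and VEGFA was at 33.7 ± 2.75 TPM. ALDOA was listed at 6.37 TPM, with 53.5% of its exon bases shared with other annotated genes. The heat shock and unfolded protein list had 10 of 10 genes detected, led by HSPA5 (421, 465 and 505 TPM), ATF4 (367 ± 26.7 TPM) and DNAJB1 (85.8 ± 25.8 TPM). Of these 10 genes 8 were highest in library 3, against 35.6% of genes with at least 1 CPM in a library. Of the immediate early genes 10 of 13 were detected, led by BTG2 (134 ± 15.7 TPM), EGR1 and JUN (99.4 ± 4.94 TPM). FOSB, EGR2 and EGR3 had 32, 24 and 14 (FOSB), 13, 8 and 19 (EGR2) and 8, 16 and 5 (EGR3) counts.

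The spread between the libraries was moderate for most genes and wide for a few. The median absolute difference in CPM between 2 libraries was 0.21 on the log2 scale for libraries 1 and 2, 0.22 for libraries 2 and 3 and 0.34 for libraries 1 and 3. The biological coefficient of variation from edgeR, the relative SD between libraries beyond counting noise, was 19.1% over 15738 genes. It was 14.5% without library 3, 16.8% without library 1 and 24.3% without library 2, so the estimate rests on how libraries 1 and 3 differ. The median coefficient of variation per gene was 14.8% for detected genes and 11.3% for genes with a mean of at least 100 CPM. As a check for a library deposited more than once, each pair was compared with counting noise, and the mean chi-square per gene was 12.2, 35.0 and 16.2 for the pairs 1 and 2, 1 and 3, and 2 and 3, so all 3 were counted as separate samples.

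Library 3 was at least 2-fold above each other library for 365 genes (2.18%) and at least 2-fold below each for 325 of 15619 genes (2.08%). The numbers for library 1 were 282 higher (1.68%) and 174 lower (1.11%), and for library 2 they were 147 higher (0.876%) and 117 lower (0.749%). Of the 387 list members with at least 1 CPM in a library, 53 were called higher in library 3, 20 in library 1 and 1 in library 2. Of the 348 with at least 1 CPM in at least 2 libraries, 8, 16 and 16 were called lower in libraries 1, 2 and 3. The members were chosen with earlier results of these data known. These counts, and those of the single lists above, can therefore not be set against the shares of all genes. Genes at 1 CPM or more in a single library and under 3 counts in the others numbered 23 for library 3, 3 for library 1 and 3 for library 2. Those of library 3 held 18 protein-coding genes, among them the developmental factors ATOH1, BARHL1, DLX1, DLX2, LHX9, NKX2-8, POU4F2, PRRX1, TFAP2B and TWIST1, which were picked out after their values were seen.

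The genes with the largest ratio between libraries at a mean of at least 10 CPM were mostly high in library 3. ZIC1 was at 0.582, 1.44 and 37.0 CPM, EN2 at 6.57, 3.07 and 80.6 CPM and CRH, the stress neuropeptide gene, at 3.08, 9.81 and 36.8 CPM. UNC5C, a netrin receptor gene, was at 6.57, 5.43 and 46.3 CPM, LUM at 4.77, 4.38 and 34.6 CPM, ZIC5 at 11.2, 4.64 and 35.4 CPM and PTN, a secreted growth factor gene, at 23.3, 18.8 and 120.3 CPM. All of these were high in library 3. AMER2, a WNT regulator gene, and POU2F2 were high in library 3 as well (16.8, 11.6 and 59.6 CPM and 7.45, 12.0 and 36.3 CPM), whereas KRT8 was high in library 1 (31.1, 11.1 and 4.79 CPM).

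In the other direction, NNAT, an imprinted gene of neural tissue, was at 134, 22.4 and 1.26 CPM, a ratio of 107 between libraries 1 and 3. HOXB-AS3, an antisense RNA in the HOXB cluster, was at 30.5, 15.6 and 4.79 CPM and followed the HOX genes. CSRP1, an actin-associated LIM protein gene, was at 29.4, 20.8 and 8.14 CPM, lowest in library 3 like NNAT. MIR9-3HG, a host transcript of the neural microRNA miR-9, and OLIG2 were lowest in library 1 (4.83, 13.3 and 19.8 CPM and 3.78, 13.7 and 27.3 CPM), ZIC2 and COL1A2 in library 2 (31.8, 12.5 and 71.5 CPM and 84.8, 28.5 and 100.05 CPM). U2AF1L5 (26.4, 64.1 and 4.07 CPM), GPR89A (29.3, 5.89 and 13.7 CPM) and PCDHGB4 (2.73, 17.9 and 9.999 CPM) have near-identical copies or share exons with neighbouring genes, so their differences are uncertain. U2AF1, the near-identical copy of U2AF1L5, was at 5.35, 6.61 and 14.8 CPM.

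The genes with the lowest coefficient of variation were taken from 2406 genes with a mean of at least 100 CPM. PRXL2A was at 132, 133 and 133 CPM, a coefficient of variation of 0.335%. The histone demethylase genes KDM5B and KDM1A were at 379, 381 and 383 CPM and 366, 362 and 368 CPM, the histone variant gene H2AFZ at 331, 328 and 333 CPM and the ribosomal protein gene RPL37A at 305, 310.3 and 306 CPM. SECISBP2, MPZL1, ANKLE2, P4HA1 and BNIP3 completed the 10, all with a coefficient of variation under 1%. Counting error alone is larger than that at such counts (2270, 2032 and 2217 for PRXL2A). These 10 genes can therefore not be called steadier than others with small differences. The neural genes HES5, EVX1 and SOX2, picked after their values were seen, had 1.06%, 8.17% and 5.21% by the same measure.

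**Figure D5:**
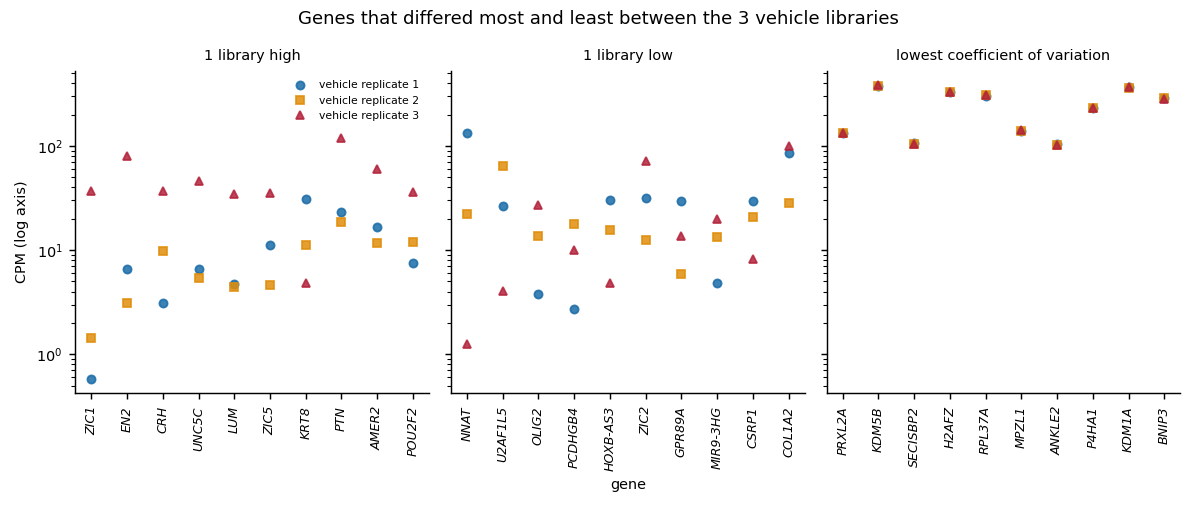
CPM (log axis) of the 10 genes with the largest ratio in which 1 library was high, the 10 in which 1 library was low and the 10 with the lowest coefficient of variation, with a marker for each vehicle library. In the first panel library 3 is the high one for all but KRT8, and in the third the 3 markers lie on top of each other.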

How the data were processed

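Poly-A selected RNA of whole SCOs was sequenced in 9 libraries, of which the 3 vehicle libraries were used. Per the submitters' processing notes, reads were aligned with HISAT2 2.0.5 and counted with featureCounts 1.5.0-p3. The deposited counts are whole reads per gene without normalization, and the tables list no gene whose reads sum to 0 or 1. The deposited FPKM values were made by the authors from these counts, gene lengths and a library size of their own, and served only as an alternative. All 30034 gene IDs, coordinates and lengths match GENCODE 29 (GRCh38). Whether the counting used the strand is not given in the sources used here. The authors' normalized counts, fold changes and p-values were not used.

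CPM was taken from library totals and TPM from counts per kilobase of gene length, in Python 3.11.15 with pandas 2.3.3. Dispersion was estimated with edgeR 4.0.16 in R 4.3.3, with an intercept only and no scaling factor, on genes passing filterByExpr, and was tested on simulated data. DESeq2 1.42.0 gave alternative size factors. A library was called apart when it was at least 2-fold above each other library (highest at least 1 CPM) or at least 2-fold below each (middle at least 1 CPM). The 47 lists hold 516 different genes, of which 490 were in the table, 18 of them with 0 vehicle counts, and 327 were detected. The genes named are the 20 nuclear protein-coding, 5 mitochondrial and 10 noncoding genes of at least 200 bases with the highest mean TPM. In each list the top 3 and every detected member of lists with up to 9 of them are named. Named as well are the 10 genes each with the largest ratio for 1 library high and low, and the 10 with the lowest coefficient of variation. Further members were named to account for defining markers. Members and lists were chosen with earlier results of these data known. Some list members and abundant genes are not reported here, though they count in the sums. Y-linked genes, XIST and TSIX were left out of per-gene values. A legend of the study calls the sequenced vehicle and VPA replicates independent, without saying whether they are separate cultures beyond their clones.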

Additional observations from a re-analysis of the deposited data

How the results depend on the processing

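No paired analysis was possible because the results come from a single group and from no test. The number of detected genes was 14733 as reported, 28374 when a single count in any library sufficed, 18690 at 3 counts in every library and 11608 at 5 CPM in every library, and 14972 to 15102 when 1 library was left out. Scaling to the library total without the mitochondrial genome raised the summed TPM of HOX genes to 3086, of intermediate progenitor genes to 1497, of neural progenitor genes to 8363, of young neuron genes to 4099 and of neural crest genes to 740.4, since the mitochondrial genome held 22.0% of TPM. By construction this scaling moves all nuclear genes of a library together. With TMM factors, DESeq2 size factors or the deposited FPKM, all 48 list sums moved by less than their SD between libraries. Each of these settings changes a library by a single factor, and the values were then scaled back to the same mean total. Little movement was therefore built in, and it is no sign of robustness. The biological coefficient of variation was 19.1%, 14.5% to 24.3% when 1 library was left out, 22.7% without a filter on low counts and 16.9% at a mean of at least 10 CPM. The highest gene of a list was the same in 44 to 46 of 47 lists when 1 library was left out. EN2 gave way to EN1 and ZIC2 to BMP7 without library 3, and LIN28A to GREB1 without library 1. Depth limits the low genes: under 3 counts a gene lay below the floor. With 3 or more counts it was still not called detected where it had under 1 CPM in a library. Neither case says anything of a few cells that express the gene.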

Other observations

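The share of detected genes differed with how much of a gene's exons another annotated gene covers. Of nuclear protein-coding genes with a vehicle count and no such overlap, 6600 of 8774 were detected (75.2%), with a median of 16.3 TPM. With up to 50% of exon bases shared it was 6053 of 7237 (83.6%, median 16.4 TPM), with over 50% to 90% it was 201 of 470 (42.8%, median 1.24 TPM), and with over 90% it was 2 of 129 (1.55%, median 0.140 TPM). Low values of genes such as HOXC5, HOXD3 and ALDOA stand in the third of these classes. The cause was not tested.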
